A study of Mus musculus with 45 samples.

Results

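Abcg5, Abcg8, Abca1, Abcg1, Abcb4 and Abcb11 are transporters that move cholesterol, phospholipid and bile salts out of cells, and Nr1h2 and Nr1h3 encode the liver X receptors LXRβ and LXRα. These 8 genes were chosen by name, with earlier results of these data known. All 8 were found, with 1 probe set each, among the 22080 genes measured. They were followed over 45 Affymetrix arrays of liver, kidney and brain from male C57BL/6 mice, 7 weeks old by their labels and killed on day 43 of feeding. The Control mice ate the AIN-93 diet, and the HCD mice the same diet with 0.5% cholesterol. The other 3 groups ate the cholesterol diet with an addition: HCD+Gl-1 had 1% of an extract of the mushroom Ganoderma lucidum, HCD+Gl-2 had 1% of an extract from mushrooms grown with 10 mM acetylsalicylic acid in the substrate, and HCD+Sim had simvastatin, a statin that inhibits cholesterol synthesis, at 0.03% of the diet by weight. Each group had 8 mice and 3 arrays in each tissue. The methods describe pools A and B as RNA of 4 mice each and pool C as a mix of both, so a group holds 2 separate pools. The fit nevertheless counted pool C as a separate array. Its p-values measure the spread between arrays of pools rather than between animals and can be too small, and its intervals can be too narrow.

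The ring of cholesterol cannot be broken down by the body, so cholesterol is removed from the body mainly through bile, as sterol or as bile acid. ABCG5 and ABCG8 work as a heterodimer that exports sterols into bile and back into the gut lumen, ABCA1 and ABCG1 load cholesterol and phospholipid onto apolipoprotein A-I and HDL, ABCB4 flips phosphatidylcholine into bile, and ABCB11 is the bile salt export pump. The LXRs bind oxidised forms of cholesterol as heterodimers with the retinoid X receptors and switch on Abcg5, Abcg8, Abca1 and Abcg1, together with the lipogenic regulator Srebf1. Abcb11 is a known target of a different receptor, the bile acid sensor FXR, which is encoded by Nr1h4.

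The promoter sequences are shown first because Abcg5 and Abcg8 can share one. RefSeq promoter windows of GRCm38.p6, each from 250 bases before to 50 after a gene's start, were matched to 7 of the 8 genes, all but Abcg1, in 9 windows. Abcg5 on the minus strand and 1 of the 2 listed starts of Abcg8 on the plus strand of chromosome 17 lie head to head, with 109 bases between them. The windows of both these starts hold this stretch, and the window of the other Abcg8 start does not. It is given below on the plus strand, 5′ to 3′, from the Abcg5 side to the Abcg8 side, with capitals for AGATAA in either orientation, letters that GATA factors are known to bind and that were picked out after the sequence had been read.

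Abcg5 to Abcg8, chr17:84683012-84683120: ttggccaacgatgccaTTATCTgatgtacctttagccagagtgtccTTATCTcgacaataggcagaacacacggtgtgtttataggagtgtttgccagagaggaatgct

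AGATAA occurred 2 times in this stretch and at least once in 11.2% of the 32817 promoter windows on either strand. The nuclear receptor motif AGGTCA, also read on both strands, did not occur in it. Of the 9 windows of these genes, 1 held AGGTCA exactly, that of Abcb11, against 16.3% of all windows. The LXR type of element is a direct repeat of AGGTCA with a spacer of 4, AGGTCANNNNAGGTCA. It was found in none of the 9 windows, either exactly, as in 0.0152% of all windows, or with up to 2 mismatches, as in 3.02%. A window of this length covers only the letters next to the start. With 3 mismatches allowed, a setting chosen after the windows had been read, 21.9% of all windows matched and Abca1 had the 1 match among these genes, 52 bases before its start. The inverted repeat with a spacer of 1, AGGTCANTGACCT, is the form that FXR is known to bind. Its exact form was in 0.00914% of windows and in none of these, and with 1 mismatch, again a setting chosen after reading the sequences, it was in 0.0823% of all windows and in that of Abcb11, where its last letter lay 51 bases before the start. It contains the exact AGGTCA, read on the other strand, that was counted above. Both sites are given along the strand of their gene, the minus strand, with capitals for the fixed positions of the motif.

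Abcb11, chr2:69342663-69342683: ctttAGGCCAtTGACCTataa

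Abca1, chr4:53159943-53159966: cgttTGACCGgtagTAACCCcggc

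Values are log2 signals on the array after the authors' normalization, so a difference of 1 is a doubling. They can be compared between groups for a gene but not between genes. A gene was called where its log2 difference exceeded 0.7 in size and the adjusted p from limma was at most 0.05. Medians of the arrays ran from 6.759 to 6.919, and arrays of the same group correlated at 0.9846 or more. Markers of hepatocytes averaged 13.19 to 13.35 in liver and at most 7.44 elsewhere, and those of kidney tubule and neuron were likewise highest in their own tissues. In liver, pools A and B of Control averaged 6.61 and 7.25 over 6 markers of squamous epithelium, against 5.65 in pool C and 5.38 to 5.67 on the other liver arrays. Pools A and B of HCD+Sim averaged 7.33 and 7.88 over 7 markers of acinar pancreas and 7.51 and 7.98 over 6 of skeletal muscle, against 6.31 and 6.64 in pool C. In these 2 groups pool C, described as a mix, lay outside the range of its own parts for those markers. With Fasn, given below, it did so in every liver group. Because of the markers, results on Control and HCD+Sim liver were computed again with pool C as their 1 array, although pool C is not known to be truer. Of 80 such differences of the 8 genes, 70 stayed on the same side of the adjusted p threshold, and the other 10 are given beside the results they touch.

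The tissues differed far more than the diets. On the Control diet, 6 of the 8 genes were called higher in liver than in kidney, where 16.8% of all genes were called in either direction, and 7 were called between liver and brain, against 32.7%. Between kidney and brain 2 were called, against 30%. In a piece of tissue, fewer cells of a type and less RNA per cell cannot be told apart, and the arrays carry no detection call, so a low level cannot be told apart from background. All kidney and brain arrays of Abcg5, Abcg8, Abcb4 and Abcb11 lay below 6.843, the median of all values, and no fold against them is given.

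**Figure D1:**
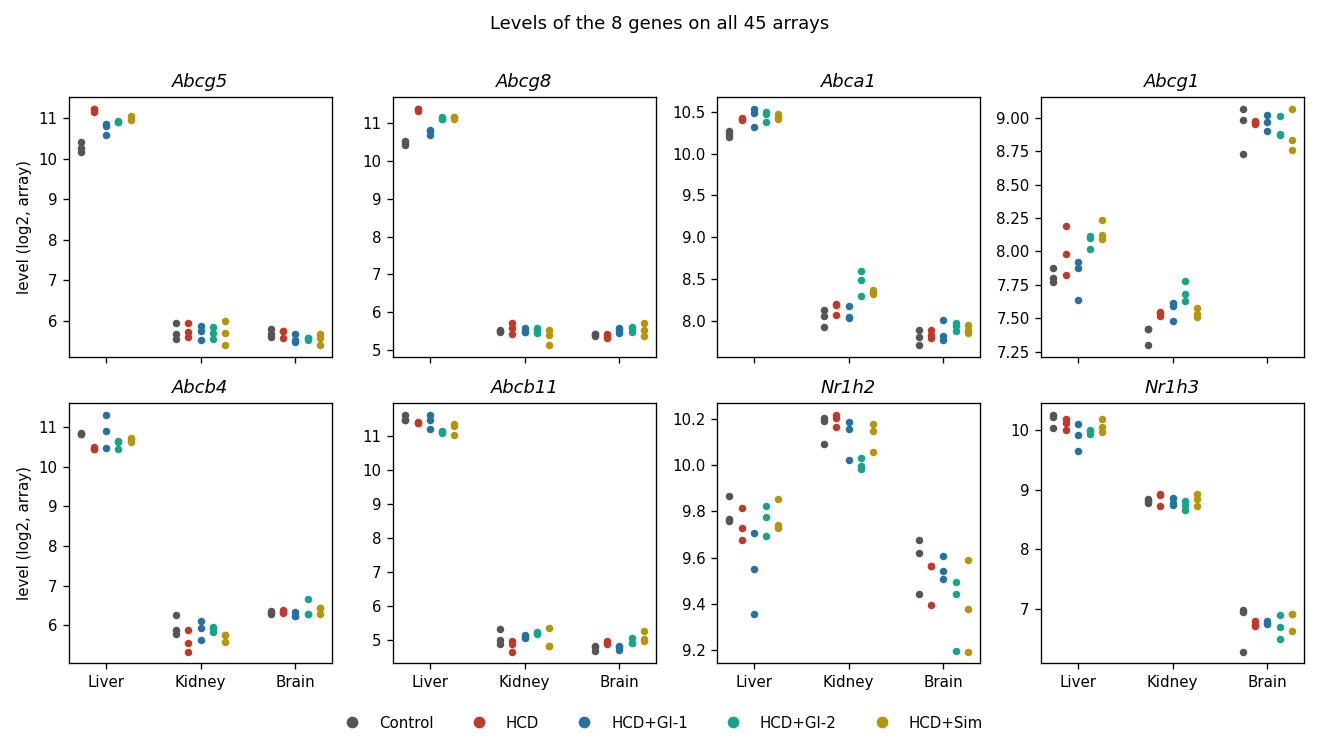
Log2 array level of each of the 8 genes (vertical axis, own scale in each panel) in liver, kidney and brain, 1 point per array and 1 colour per diet group. The liver points of Abcg5, Abcg8, Abca1, Abcb4, Abcb11 and Nr1h3 lie above all kidney and brain points, whereas Abcg1 is highest in brain and Nr1h2 in kidney.

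The 15 liver arrays of Abcb11, the bile salt pump, lay between 11.05 and 11.61, its kidney arrays between 4.67 and 5.37 and its brain arrays between 4.69 and 5.27. Abcb4, which supplies the phospholipid of bile, was at 10.44 to 11.30 in liver, 5.34 to 6.27 in kidney and 6.23 to 6.66 in brain. Abcg5 spanned 10.18 to 11.23 in liver, 5.39 to 5.99 in kidney and 5.41 to 5.79 in brain, and Abcg8 spanned 10.41 to 11.37, 5.13 to 5.73 and 5.33 to 5.71. For both subunits the kidney and brain arrays overlapped over all diets. On Control, kidney and brain differed by 0.04 for Abcg5 (adjusted p = 0.812) and by 0.10 for Abcg8 (adjusted p = 0.287) in the limma fit.

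Abca1, found in most cell types, was at 10.20 to 10.53 in liver, 7.93 to 8.59 in kidney and 7.71 to 8.01 in brain, 4.59-fold above kidney and 5.39-fold above brain on Control. Abcg1 had another order. Its brain arrays (8.73 to 9.06) lay above its liver arrays (7.64 to 8.23), and these overlapped with kidney (7.30 to 7.78). On Control it was 2.16-fold lower in liver than in brain (log2 difference -1.11, limma adjusted p = 7.96e-15) and 2.92-fold lower in kidney than in brain, while liver exceeded kidney by 0.43, short of the 0.7 threshold.

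Of the receptors, LXRα is known as the form enriched in liver and LXRβ as the widespread one. Nr1h3 lay between 9.65 and 10.24 in liver, 8.65 and 8.93 in kidney and 6.29 and 6.99 in brain, and no tissue overlapped with another. Its Control level was 2.55-fold higher in liver than in kidney, and no fold is given against brain, where most of the 15 arrays lay below the median of all values. The Control brain group was its loosest, at 6.94, 6.99 and 6.29 in pools A, B and C. Nr1h2 stayed within 9.19 and 10.22 on all 45 arrays. It was highest in kidney (9.98 to 10.22), and liver (9.35 to 9.87) overlapped with brain (9.19 to 9.68). It was not called between any tissues, although all 3 Control differences, -0.37 for liver against kidney, 0.22 for liver against brain and 0.58 for kidney against brain, passed the adjusted p. Most genes did so in these comparisons (48.4%, 70% and 59.1% of all genes). The difference of liver from brain passed in 8 of 14 alternatives, among them the other fold thresholds, which leave the adjusted p unchanged. It did not pass when pool C was the 1 Control liver array, where it was 0.19.

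The diet comparison asked what added cholesterol did to these genes. In liver both subunits of the sterol exporter rose, by nearly the same amount. Of the 8 genes 2 were called, both higher, where 0.245% of all genes were called. Since the 8 were chosen with earlier results of these data known, their share is a description only. Abcg5 measured 10.27, 10.18 and 10.41 in pools A, B and C of Control and 11.22, 11.23 and 11.16 in those of HCD. Every HCD array was above every Control array. The difference was 1.89-fold (log2 0.92, SE 0.11, 95% interval 0.69 to 1.14, limma adjusted p = 1.34e-06). Abcg8 measured 10.47, 10.52 and 10.41 on Control and 11.32, 11.37 and 11.36 on HCD. It rose 1.84-fold (log2 0.88, SE 0.08, 95% interval 0.72 to 1.04, limma adjusted p = 8.65e-10), again without overlap. Of the markers named above, 4 of the 6 for squamous epithelium and 1 of the 6 for skeletal muscle were called lower on HCD than on Control. With Control represented by pool C alone, whose spread is then taken from the other groups, both genes were still called, at 0.79 (adjusted p = 0.0117, the highest of 16 alternatives) and 0.93 (adjusted p = 3.29e-06, with 0.00250 the highest of 16).

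**Figure D2:**
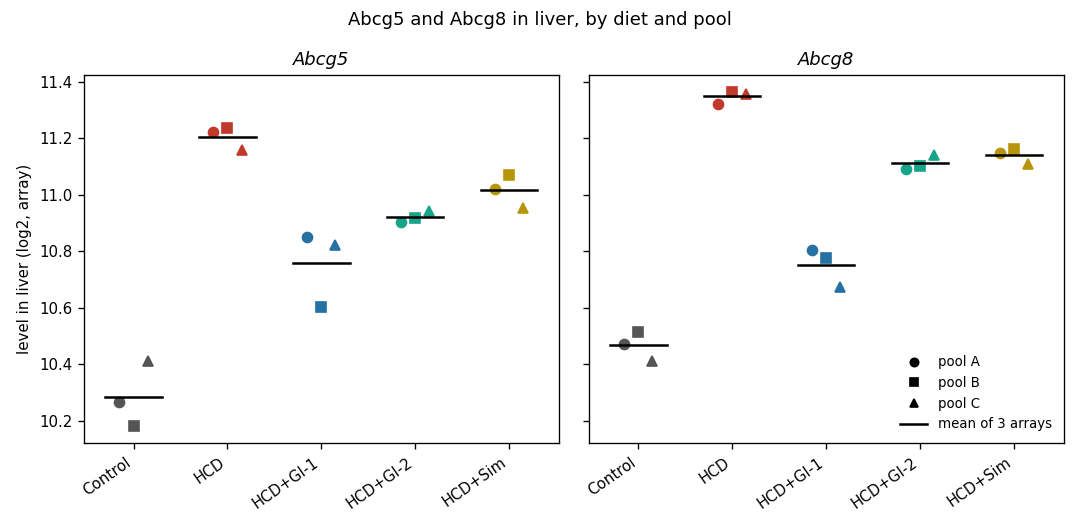
Log2 level in liver of Abcg5 (left) and Abcg8 (right) by diet group, with 1 symbol per pool and a line at the mean of the 3 arrays. Control lies lowest (10.18 to 10.52 over both genes), HCD highest (11.16 to 11.37) and HCD+Gl-1 lowest of the 4 cholesterol groups (10.60 to 10.85).

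The other transporters did not pass in liver. Abca1 was at 10.24, 10.20 and 10.27 on Control and 10.41, 10.40 and 10.43 on HCD. These arrays did not overlap, but the difference was only 0.18 (SE 0.07, adjusted p = 0.301). Abcg1, at 7.77, 7.80 and 7.87 against 7.98, 7.82 and 8.19, overlapped between the diets, with a difference of 0.18 (SE 0.08, adjusted p = 0.438). The 10 markers of macrophages and Kupffer cells, which also use both exporters, were all lower on HCD, with list means of 8.08 to 8.20 against 8.36 to 8.53 and a median difference of -0.279. None of the 10 was called, and their part in the Abca1 and Abcg1 values was not tested.

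Among the bile exporters, Abcb4 measured 10.86, 10.82 and 10.82 on Control and 10.45, 10.44 and 10.50 on HCD. All HCD arrays were lower, yet the difference of -0.37 (SE 0.13) had an adjusted p of 0.230. Abcb11 was at 11.47, 11.61 and 11.46 against 11.41, 11.39 and 11.39, a difference of -0.12 (95% interval -0.34 to 0.11). The receptors themselves moved least. The log2 difference was -0.06 for Nr1h2 (95% interval -0.23 to 0.12) and -0.06 for Nr1h3 (-0.30 to 0.18), and the arrays of the diets overlapped for each. Over the 8 genes the median difference was 0.06, against -0.01 over all genes.

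In kidney and brain none of the 8 passed. The limma fit called 0 in kidney, where 0.0408% of all genes were called and 2 of the 8 had an unadjusted p under 0.05 (4.47% of all genes), and 0 in brain, against 0.0317% and with none under that p (6.44%). In kidney Abcg5 averaged 5.72 on Control and 5.75 on HCD, and in brain 5.69 and 5.68. Abcg8 averaged 5.51 and 5.58 in kidney and 5.41 and 5.38 in brain. The difference between tissues was itself tested as a contrast of the 2 diet effects. Abcg5 and Abcg8 in kidney and brain were at a level that cannot be told apart from background. The contrast therefore cannot show whether these tissues failed to respond. The liver effect exceeded that in kidney by 0.89 for Abcg5 (SE 0.16, limma adjusted p = 0.00321) and by 0.81 for Abcg8 (SE 0.11, adjusted p = 5.02e-05), and exceeded that in brain by 0.92 (adjusted p = 0.00168) and 0.91 (adjusted p = 3.24e-06). These 2 of the 8 genes were called in each contrast, where 0.149% and 0.19% of all genes were called. With pool C as the 1 Control liver array, Abcg8 was still called in both contrasts, but Abcg5 was not, at 0.76 (adjusted p = 0.122) and 0.80 (adjusted p = 0.0926). For the other 6 genes the adjusted p of these contrasts was at least 0.558.

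**Figure D3:**
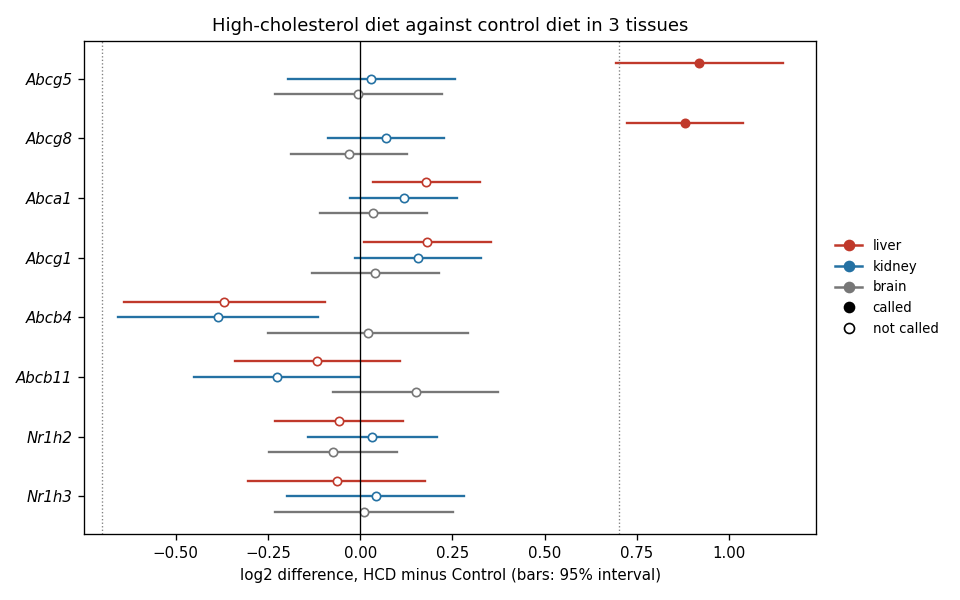
Log2 difference of HCD minus Control for each of the 8 genes in liver, kidney and brain, with bars for the unadjusted 95% interval of the limma fit, dotted lines at 0.7 and -0.7 and filled points for called differences. Abcg5 (0.92) and Abcg8 (0.88) in liver are the only filled points.

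The treatments were then compared with HCD, all against the same 3 HCD arrays. None of the 8 genes was called in liver with Gl-1 (0.163% of all genes called), Gl-2 (0.303%) or simvastatin (0.258%). Without the adjustment, 5, 3 and 1 of the 8 had a p under 0.05, as had 16.6%, 12.6% and 11.7% of all genes. Gl-1 was the treatment under which a difference passed the adjusted p, and it did so for 2 of the 8, the subunits of the sterol exporter, against 2.48% of all genes. Abcg8 was at 10.80, 10.78 and 10.68, which is 1.51-fold below HCD (log2 difference -0.60, SE 0.08, 95% interval -0.75 to -0.44, limma adjusted p = 1.15e-05), and Abcg5 to 10.85, 10.60 and 10.82, which is 1.36-fold below (-0.45, SE 0.11, adjusted p = 0.0230). No HCD+Gl-1 array overlapped with HCD for either gene, but neither difference reached the fold threshold. The adjusted p of Abcg8 was at most 0.0342 over 15 alternatives, whereas that of Abcg5 lay between 0.00589 and 0.189 and exceeded 0.05 in 7 of them, which include leaving out any HCD pool or pool B or C of HCD+Gl-1.

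With Gl-2, Abcg5 was at 10.90, 10.92 and 10.94 and Abcg8 at 11.09, 11.10 and 11.14. Both groups lay below HCD without overlap, at differences of -0.28 (95% interval -0.51 to -0.06, adjusted p = 0.241) and -0.24 (-0.39 to -0.08, adjusted p = 0.125). With simvastatin, Abcg5 was at 11.02, 11.07 and 10.95 and Abcg8 at 11.15, 11.16 and 11.11, or -0.19 (adjusted p = 0.541) and -0.21 (adjusted p = 0.232) from HCD. With pool C as the 1 simvastatin array these were -0.25 (adjusted p = 0.414) and -0.24 (adjusted p = 0.255), and again none of the 8 passed. Between the extracts, Abcg8 was 0.36 higher with Gl-2 than with Gl-1 (SE 0.08, limma adjusted p = 0.00766, but 0.0817 without pool C of HCD+Gl-1 and from 0.00170 to 0.508 over 15 alternatives), whereas Abcg5 differed by 0.16 (95% interval -0.06 to 0.39, adjusted p = 0.438). None of the 8 was called between the extracts, where 0.172% of all genes were, and 5 of the 8 had an unadjusted p under 0.05, as had 19.8% of all genes.

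**Figure D4:**
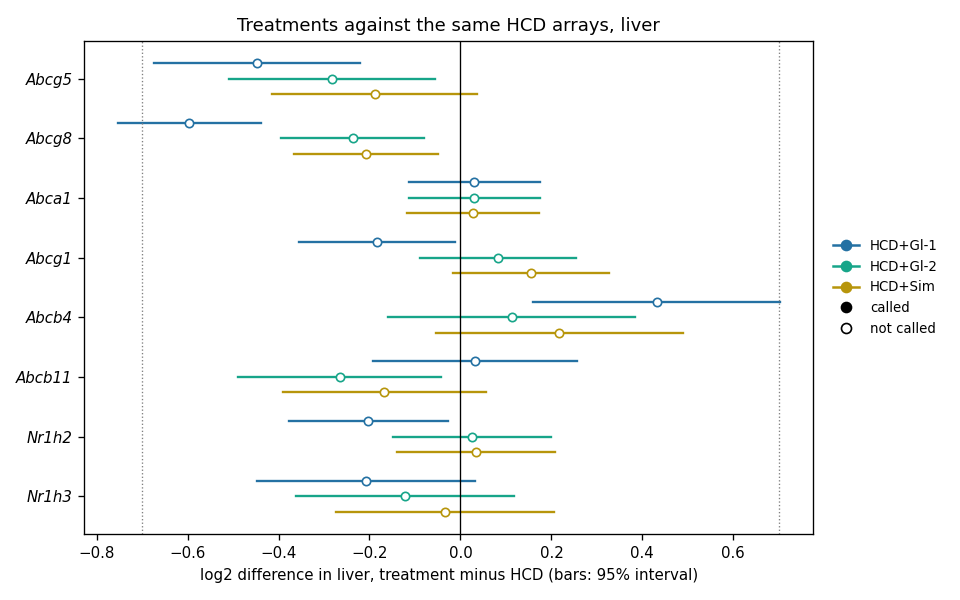
Log2 difference in liver of each treatment minus HCD for the 8 genes, with bars for the unadjusted 95% interval of the limma fit and dotted lines at 0.7 and -0.7. No point is filled, since none was called; Abcg5 and Abcg8 lie left of 0 for all 3 treatments, farthest for Gl-1 (-0.45 and -0.60), and Abca1 lies at 0.03 for each.

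The order of the liver groups was HCD, HCD+Sim, HCD+Gl-2, HCD+Gl-1 and Control for both genes. For Abcg5 no group overlapped with its neighbour in that order, and for Abcg8 only HCD+Sim and HCD+Gl-2 did. The groups were sorted by these same values, and the share of all genes without such overlap is not given. As given above, the steps from HCD to HCD+Sim and, for Abcg5, from HCD+Gl-2 to HCD+Gl-1 did not pass the adjusted p. The step from HCD+Sim to HCD+Gl-2 was not tested for either gene. All 3 treated groups stayed above Control. Against the same Control arrays, the difference for Abcg5 was 0.47 with Gl-1 (adjusted p = 0.0110), 0.64 with Gl-2 (adjusted p = 3.02e-04) and 0.73 with simvastatin (adjusted p = 5.94e-05). For Abcg8 these were 0.28 (adjusted p = 0.0316, from 0.0184 to 0.349 over 16 alternatives and above 0.05 in 8 of them, which include leaving out any Control pool or pool A of HCD+Gl-1), 0.64 (adjusted p = 5.01e-07) and 0.67 (adjusted p = 3.99e-07). Only Abcg5 with simvastatin was called, so the count was 0 of 8 with Gl-1 against 0.322% of all genes, 0 with Gl-2 against 0.584% and 1 with simvastatin against 0.358%. At an unadjusted p under 0.05 the count was 5 of 8 for each, against 17.9%, 14.2% and 11.8% of all genes.

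That 1 call was lost when some arrays were left out. Without pool B of Control the Abcg5 difference was 0.68, and with pool C as the 1 simvastatin array it was 0.67, both under the fold threshold. With pool C as the 1 Control array it was 0.60 (adjusted p = 0.0798), while Abcg8 was then called at 0.73. With that same Control array, Abcg5 no longer passed the adjusted p with Gl-1 (0.35, adjusted p = 0.285, from 0.00298 over 16 alternatives and above 0.05 in 5 of them) or Gl-2 (0.51, adjusted p = 0.137), nor did Abcg8 with Gl-1 (0.34, adjusted p = 0.129). Abcg8 with Gl-2 still passed it (0.70, adjusted p = 5.02e-04).

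Abca1 in liver was nearly the same in the 4 cholesterol groups, with group means of 10.41 to 10.45 and overlapping arrays, and all 12 of these arrays lay above the 3 Control arrays. Its differences from Control, 0.18 to 0.21, had adjusted p-values of at least 0.0941, and none passed with pool C as the 1 Control or simvastatin array. Abcg1 was at 8.09, 8.23 and 8.12 with simvastatin, 8.12, 8.10 and 8.02 with Gl-2 and 7.87, 7.92 and 7.64 with Gl-1. Its simvastatin arrays were 0.34 above Control (SE 0.08, limma adjusted p = 0.0275), which passed the adjusted p but not the fold threshold. Over 17 alternatives the adjusted p lay between 0.00759 and 0.435, and above 0.05 in 8 of them. With pool C as the 1 simvastatin array the difference was 0.31 (adjusted p = 0.159), and with pool C as the 1 Control array it was 0.28 (adjusted p = 0.435).

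Abcb4 with Gl-1 had the largest spread among the liver groups of these 8 genes, at 10.91, 10.48 and 11.30 in pools A, B and C (SD 0.41, n = 3), so that its mean of 10.90 was 0.43 above HCD with an adjusted p of 0.0743 and overlapping arrays. Without pool B of HCD+Gl-1 the difference was 0.64 (adjusted p = 0.00120), and without pool C it was 0.23 (adjusted p = 0.558). With Gl-2 it was at 10.62, 10.46 and 10.66 and with simvastatin at 10.69, 10.63 and 10.73, and neither difference from HCD passed (adjusted p = 0.808 and 0.567). Abcb11 was lowest with Gl-2, at 11.11, 11.16 and 11.13. These arrays lay below all Control arrays, by 0.38 (SE 0.11, limma adjusted p = 0.0480), and below all HCD arrays, by 0.27 (adjusted p = 0.280). The first of these passed the adjusted p in 6 of 16 alternatives, with 0.0282 the lowest. Among the 6 are the other fold thresholds, which leave the adjusted p of the main fit unchanged. It passed in none that left out 1 array, nor with pool C as the 1 Control array, where the difference was -0.33. With simvastatin Abcb11 was at 11.29, 11.35 and 11.05.

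The receptor genes passed in no treatment comparison of the liver. Nr1h3 measured 9.91, 10.10 and 9.65 with Gl-1, its lowest liver group, against 10.18, 10.11 and 10.00 on HCD (difference -0.21, adjusted p = 0.398). Nr1h2 was also lowest with Gl-1, at 9.55, 9.71 and 9.35 against 9.73, 9.82 and 9.68 (-0.20, adjusted p = 0.212). For both, pool C of HCD+Gl-1 was the lowest liver array of all.

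In kidney, 0 of the 8 genes were called with Gl-1 (0.131% of all genes called), Gl-2 (0.335%) or simvastatin (0.14%), with 2, 4 and 2 at an unadjusted p under 0.05, against 4%, 8.97% and 6.19% of all genes. One difference passed the adjusted p, with Gl-2, where 0.996% of all genes did. Abca1 measured 8.49, 8.30 and 8.59 with Gl-2, against 8.20, 8.08 and 8.19 on HCD and 7.93, 8.06 and 8.13 on Control. It was 1.24-fold higher than on HCD (log2 difference 0.30, SE 0.07, 95% interval 0.16 to 0.45, limma adjusted p = 0.0179). Over 15 alternatives this p lay between 0.00294 and 0.257, and it exceeded 0.05 in 6 of them. These include leaving out pool A (0.0975) or pool C (0.257) of HCD+Gl-2 or pool B of HCD (0.177). Its kidney arrays with simvastatin, 8.37, 8.34 and 8.33, also lay above all HCD arrays (0.19, adjusted p = 0.600). Abcg1, its partner in lipid efflux, was at 7.69, 7.78 and 7.63 with Gl-2 against 7.52, 7.54 and 7.54 on HCD, and this difference of 0.16 had an adjusted p of 0.609. Abcb11 was at 5.26, 5.21 and 5.20 against 4.67, 4.89 and 5.00 (0.37, adjusted p = 0.105), at the low level it had in all kidney arrays. In the same comparison the 5 cholangiocyte markers, some of which kidney ducts also use, were all higher, none of them called, with list means of 8.24 to 8.26 against 7.97 to 8.06. Their part in the kidney values was not tested.

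In brain none of the 8 was called with Gl-1 (0.00906% of all genes called), Gl-2 (0.0226%) or simvastatin (0%), and 0, 1 and 1 had an unadjusted p under 0.05, against 5.55%, 6.65% and 5.53% of all genes. The smallest adjusted p among the 8 in these comparisons was 0.641, for Abcg8 with Gl-2, at 5.49, 5.59 and 5.62 against 5.39, 5.33 and 5.43 on HCD.

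Other genes of the same pathways were counted from 5 lists, with Abcg2 in 2 of them. The lists too were chosen with earlier results of these data known, so their counts are descriptions only. Of 18 further LXR targets, 3 were called higher in liver on HCD than on Control, where 0.245% of all genes were called in either direction. The adjusted p was passed by 6, all higher, where 1.34% of all genes passed it in either direction. The list median was 0.13 against -0.01 over all genes. Srebf1, which drives fatty acid synthesis, measured 9.40, 9.32 and 9.78 on Control and 10.65, 10.67 and 10.61 on HCD (difference 1.14, SE 0.14, limma adjusted p = 1.78e-06). Cyp7a1, the rate-limiting enzyme of bile acid synthesis and an LXR target in mice, measured 9.29, 9.47 and 8.88 against 10.24, 10.49 and 9.96 (1.02, SE 0.17, adjusted p = 2.64e-04). Fasn, the fatty acid synthase, was 0.85 higher (SE 0.20, adjusted p = 0.0194). No HCD array overlapped with Control for any of these 3. Srebf1 and Cyp7a1 were called also with any 1 array left out and with pool C as the 1 Control array, but Fasn was not called without pool A or C of Control or pool A or B of HCD, nor with that 1 Control array, where 3 of the 18 passed the adjusted p.

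Against HCD, 2 of the 18 were called lower with Gl-1, 2 with Gl-2 and 1 with simvastatin, and none higher. Of all genes, 0.163%, 0.303% and 0.258% were called in either direction. Fasn fell with each treatment, by 1.18, 0.84 and 1.11 on the log2 scale (SE 0.20 each, limma adjusted p = 6.29e-04, 0.0182 and 0.00153). Its fall with Gl-2 did not pass the adjusted p without pool A or B of HCD or without pool C of HCD+Gl-2. Srebf1 fell with Gl-1, by 0.80, and Acaca, the acetyl-CoA carboxylase that feeds Fasn, fell with Gl-2, by 0.74. For these 3 lipogenic genes pool C was the lowest array in every treated group, as it was for Fasn at 9.60, 9.59 and 9.42 with Gl-1, Gl-2 and simvastatin, against 10.07 to 10.98 in pools A and B. This was not particular to the treated groups. Pool C was also the lowest array on HCD for all 3 genes and on Control for Fasn and Acaca, but the highest on Control for Srebf1. Here too pool C lay outside the range of the pools it is described as mixing. Without pool C of the treated group 1 of the 18 was called lower with Gl-1 (Fasn), none with Gl-2 and 1 with simvastatin (Fasn). There were 3 called lower (Acaca, Cyp7a1 and Fasn) with pool C as the 1 simvastatin array, and without pool B of that group 2 (Acaca and Fasn). In kidney and brain no list gene was called in any diet or treatment comparison.

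Of 12 other bile salt and organic anion transporters, 1 was called in liver on HCD against Control, where 0.245% of all genes were called. Abcc3, which exports conjugates from the hepatocyte back to the blood, measured 9.74, 9.69 and 9.67 on Control and 10.87, 10.70 and 10.75 on HCD (difference 1.07, SE 0.08, limma adjusted p = 4.73e-12). With Gl-1 it was 0.36 lower than on HCD (adjusted p = 0.00778), under the fold threshold. Of 16 genes of sterol uptake, esterification and trafficking none was called, and 2 passed the adjusted p, against 1.34% of all genes. Soat2, which esterifies cholesterol, was 0.33 higher and Nceh1, which hydrolyses the esters, was 0.42 lower. Neither passed with pool C as the 1 Control array, while Abcc3 was still called. None of 13 receptor partners, among them the retinoid X receptors and Nr1h4, and none of 14 other ABCA and ABCG transporters passed it in that comparison.

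**Figure D5:**
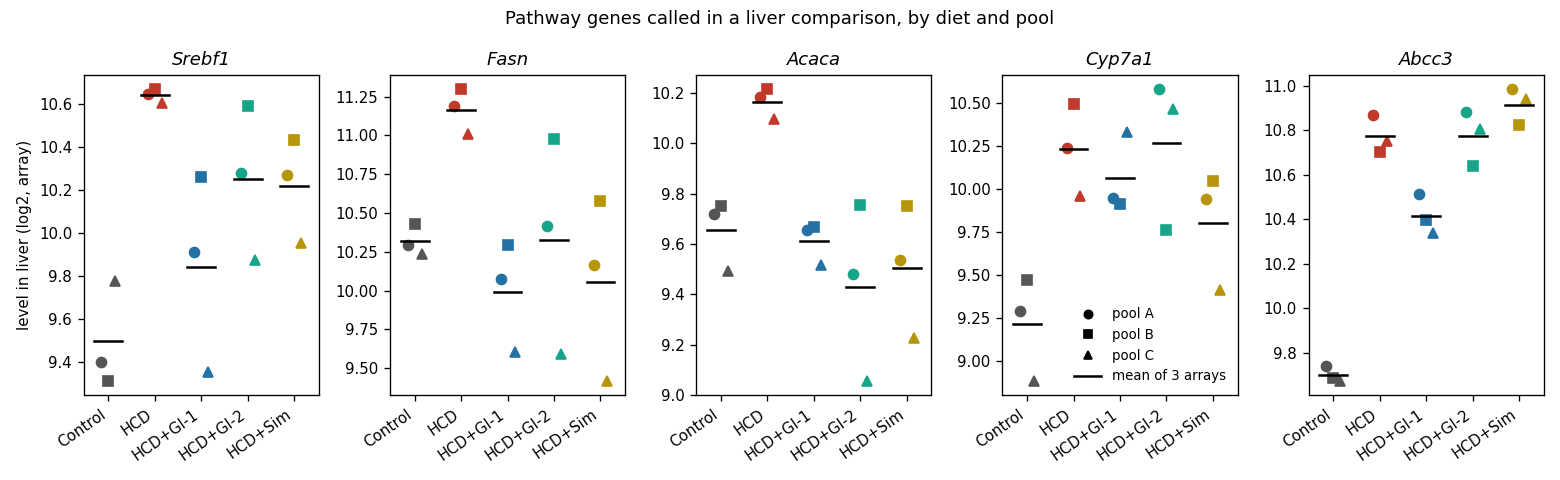
Log2 level in liver of the 5 list genes called in a liver comparison of HCD with Control or of a treatment with HCD, by diet group, with 1 symbol per pool and a line at the mean; each panel has its own scale. Srebf1, Fasn and Acaca are highest on HCD, and within each group pool C is their lowest array, except for Srebf1 on Control. Abcc3 is at 9.67 to 9.74 on Control and at 10.34 or more in all other groups.

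Likeness to each member was measured as Pearson's correlation over the 15 liver arrays, which share diet groups, as a description only. Abcg5 and Abcg8 had r = 0.936 with each other, and -0.334 once group means were taken out. The genes most like Abcg5 were Ces1g (r = 0.946), Acsm5 (0.941) and Pparg (0.925), and those most like Abcg8 were Glt1d1 (0.911), Acsm5 (0.908) and Abcc3 (0.904). Acsm5, a medium-chain acyl-CoA synthetase, was on both lists. Abca1 was most like Hsd17b11 (0.895), Abcg1 most like Coasy (0.912), Abcb4 most like Hacd3 (0.967) and Abcb11 most like Kynu (0.950). The receptors were most like Rmrp (0.952) for Nr1h2 and Ndufs8 (0.886) for Nr1h3. No gene other than Acsm5 was among the 3 most alike of more than 1 member.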

How the data were processed

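Total RNA from liver, kidney and brain was hybridised to Affymetrix Mouse Gene ST v1.0 arrays. The authors corrected the intensities by RMA, applied quantile normalization with oligo, reduced a batch effect with ComBat (batches not given in the sources used here), retained per gene the probe set of largest interquartile range, and deposited log2 values of 22080 genes, without a detection call. ComBat may have removed or added differences between groups, and this cannot be undone here. Groups and pool letters come from the labels.

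From these values, 15 group means were fitted to all 45 arrays with limma 3.58.1 in R 4.3.3 (eBayes, 7.337 prior and 30 residual degrees of freedom), without a block. P-values were adjusted by Benjamini-Hochberg over all genes within each of 21 contrasts. Calls needed a log2 difference beyond 0.7 in either direction with an adjusted p no higher than 0.05, the thresholds in the methods. Intervals are unadjusted. With 3 arrays against 3, an exact permutation test of 1 value cannot go below p = 0.1, so only the fit across genes was used. The fit was tested on simulated data.

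Named are the 8 members in all groups, genes of 5 pathway lists where called in liver for HCD against Control or a treatment against HCD, and the 3 genes most correlated with each member over the liver arrays. Soat2 and Nceh1, which passed the adjusted p alone, the arrays of Abcc3 with Gl-1, and markers of other cell types are given beside these. The members and lists were chosen with earlier results of these data known. Promoter sequences are RefSeq's, of GRCm38.p6. Alternatives were the arrays of the tissue or of the compared groups alone, another quantile normalization and pools A and B alone. A pool letter block, a filter on dim genes, trend and robust moderation and other fold thresholds were also used. So were each array left out and, chosen after seeing the data, pool C as the 1 Control or HCD+Sim liver array. The other fold thresholds keep the adjusted p of the main fit. They are included in every count of alternatives by adjusted p, which they could not change.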

Additional observations from a re-analysis of the deposited data

Results flagged for a closer look

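The contrast of the HCD effect in liver with that in another tissue was called for 2 of the 8 genes. Of all genes, 0.149% were called against kidney and 0.19% against brain. The HCD effect on Abcg5 was 0.89 larger in liver than in kidney and 0.92 larger than in brain (log2 scale, SE 0.16 each). For Abcg8 the corresponding values were 0.81 and 0.91 (SE 0.11 each). As given above, the call of Abcg5 in both contrasts did not hold with pool C as the 1 Control liver array, at 0.76 and 0.80. All 3 HCD liver arrays lay above all 3 Control liver arrays for both genes, whereas the kidney and brain arrays of the diets overlapped. Both genes are at a low level in kidney and brain, where background cannot be told apart from expression on these arrays. The contrasts therefore cannot show whether kidney and brain failed to respond.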

How the results depend on the processing

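Of 2616 recomputed member differences, 2585 kept their call or lack of one, 12 lost the call, 19 gained it and 0 called values changed sign. A further 89 uncalled values changed sign. Most member differences were not called in the main fit, so most of those kept were uncalled values that stayed uncalled. On the adjusted p alone, 2533 stayed on the same side of 0.05, 68 no longer passed it and 15 passed it newly. The 2533 include the other fold thresholds, which reuse the adjusted p of the main fit and could not change sides. Requiring a log2 difference over 1 left 0 members called for liver HCD against Control, for liver HCD+Sim against Control and for the HCD effect in liver against kidney or brain. The share of all genes called is not given for this threshold, nor for the settings below with changed arrays or a block. These counts therefore describe the members only. Dropping the fold threshold gave 2 of the 8 members for liver Gl-1 against HCD (2.48% of all genes), 1 for kidney Gl-2 against HCD (0.996%), 2 for liver Gl-1 against Control (3.58%), 3 each for Gl-2 (2.86%) and simvastatin (1.54%) against Control, 1 for liver Gl-2 against Gl-1 (3.94%) and 6 for kidney against brain (59.1%). With single arrays left out, the count for liver simvastatin against Control ranged from 0 to 1, being 0 without pool B of Control, where Abcg5 was at 0.68 (adjusted p = 0.00183). With pool C as the 1 simvastatin liver array it was 0, and with pool C as the 1 Control liver array 1 member was called for the HCD effect in liver against kidney and 1 against brain. These last settings were chosen after seeing the data. Pool letters were not treated as pairing the samples. Deviations of same-letter arrays correlated at a median of 0.0728 in liver (-0.126 to 0.265), where 12 of 30 pairs exceeded 0.1. The median was -0.00125 in kidney (-0.29 to 0.199) and -0.0265 in brain (-0.382 to 0.421), so some shared deviation by letter remains possible. With the pool letter as a replicate block 2 members were called for liver HCD against Control, as without it, Abcg5 at 0.92 (adjusted p = 6.71e-06), and the block changed no member call in any contrast. The number of arrays limits the precision, and pool C adds no further animals.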
